A study of Homo sapiens with 6 samples.

Results

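The transcripts described here come from 10 genes of telomerase and of shelterin, the protein complex that coats chromosome ends. They are TERT and TERC, the core of telomerase; DKC1, NHP2 and GAR1, proteins that bind the telomerase RNA; and TERF1, TERF2, POT1, TINF2 and ACD, subunits of shelterin. They were taken by gene symbol from an expression table of 23591 genes, and all 10 were found. Total RNA had been profiled from H1, a line of human embryonic stem cells grown in serum-free TeSR-E8 medium on Matrigel, with ribosomal RNA removed before stranded sequencing. The groups were 3 libraries of wild type (WT) cells and 3 of cells labelled HEB KO, in which the gene for HEB, the E protein transcription factor encoded by TCF12, is targeted. No treatment is given. The labels do not say how the knockout was made, whether it is 1 clone, or whether the libraries of a group came from separate cultures, so the p-values speak of the spread among these libraries, which may be technical.

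Telomerase copies a short template within its RNA, TERC, onto chromosome ends, and TERT is the reverse transcriptase that does so. TERC ends in an H/ACA domain, a fold shared with a class of small nucleolar RNAs. That domain is bound by the pseudouridine synthase dyskerin (DKC1) with NHP2 and NOP10, without which TERC is unstable, and by GAR1. Shelterin binds the repeats that telomerase makes: TERF1 and TERF2 hold the double-stranded repeats, POT1 the single-stranded end, and TINF2 and ACD join them, with ACD also recruiting telomerase. Pluripotent stem cells are known for active telomerase, which most differentiated cells lack.

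TERC, a gene of chromosome 3, has no poly(A) tail in its mature form, and its RNA enters a total RNA library of this kind. The parts that telomerase and its H/ACA proteins use are shown because they set TERC apart from the 9 messenger RNAs. In the stretch from the 5′ end the capitals mark the template (bases 46 to 56, counted from the 5′ end). In the stretch up to the 3′ end of the 451-base RNA they mark the H box (372 to 377), the CAB box by which WRAP53 brings the RNA to Cajal bodies (411 to 414) and the ACA box (446 to 448). Both were read from the GENCODE release 29 transcript as DNA letters, and the mature length is that of RefSeq.
TERC bases 1 to 70: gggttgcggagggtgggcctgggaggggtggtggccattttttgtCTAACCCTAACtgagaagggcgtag
TERC bases 352 to 451: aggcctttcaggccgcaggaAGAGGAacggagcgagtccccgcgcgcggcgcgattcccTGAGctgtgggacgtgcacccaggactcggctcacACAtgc

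Levels are FPKM, fragments scaled to transcript length and library size, as the authors deposited them. The unit was inferred from the values. Summed FPKM was 440703 in HEB KO library 1 and 635114 to 714875 in the other 5 libraries, and the number of reads behind each library is unknown. TCF12, the targeted gene, was 5.16-fold lower in HEB KO by group means. All 8 markers of pluripotent stem cells were present, with a summed level of 2766 to 3293 FPKM in WT and 1497 to 3221 FPKM in HEB KO, where library 1 was the lowest. Within that list NANOG read 198 to 208 FPKM in WT and 74.3 to 122.7 FPKM in HEB KO, and SALL4 37.4 to 43.6 FPKM and 53.6 to 64.4 FPKM. The 8 markers of mesoderm and mesenchyme summed to 25.8 to 44.2 FPKM in WT and 60.5 to 179 FPKM in HEB KO. TAGLN, a smooth muscle and fibroblast gene, made up 168 FPKM of the sum in HEB KO library 2 and 49.3 FPKM in library 3. COL1A2 read 7.97 and 9.37 FPKM there, below its 9.45 to 20.5 FPKM in WT. In HEB KO library 1 COL1A2 had its highest value, 46.3 FPKM. TAGLN read 32.3 FPKM in that library, against at most 27.3 FPKM in WT. COL1A1 read 39.7, 3.21 and 1.74 FPKM in HEB KO, and at most 1.24 FPKM in WT. T (brachyury), HAND1 and 3 more of the 8 stayed below 1 FPKM in every library. The 6 neural markers summed to 72.0 to 95.8 FPKM and 58.1 to 134 FPKM, with PAX6 and SOX1 below 1 FPKM throughout. The 6 endoderm markers summed to at most 2.95 FPKM. The 6 markers of amnion and trophoblast summed to 0.800 to 1.18 FPKM in WT and 1.45 to 8.27 FPKM in HEB KO, with library 1 the highest. GATA3 and TFAP2A read 2.47 and 3.90 FPKM in HEB KO library 1 and at most 0.0407 and 0.0609 FPKM in any other library. In HEB KO libraries 2 and 3 the sum was mostly KRT7, at 1.40 and 2.78 FPKM, against 0.624 to 1.06 FPKM in WT. The part of these cells in the results below was not tested, and in such bulk samples fewer cells of a type and less RNA per cell cannot be told apart. None of the tested markers passed the test described below. Groups without overlap, as for NANOG and SALL4, were found for 19.5% of all tested genes.

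None of the 10 genes passed the test between HEB KO and WT. The test was limma on log2(FPKM + 1) with Benjamini-Hochberg adjustment at 0.05 over 12937 genes, those reaching 1 FPKM in 3 or more of the 6 libraries, and all 10 were among them. Across those 12937 genes 0.24% passed. The smallest adjusted p among the 10 was 0.424, for TERT, which was also the gene with an unadjusted p under 0.05 (4.63% of all tested genes had one with higher and 5.42% with lower values in HEB KO) and the gene whose groups did not overlap (19.5% of all tested genes). The log2 fold change was above 0 for 4 of the 10, against 45.2% of all tested genes, and the median over the 10 was -0.06 against -0.04 over all tested genes. Missing the threshold does not show equal levels, since the 95% intervals of TERC, ACD, TERF1 and NHP2 extend past a log2 change of 1 in size. These intervals are of log2(FPKM + 1), a scale that shrinks the changes of low genes. For TERT, the lowest of the 10, the upper limit of 0.92 thus understates the change in FPKM.

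The 10 transcripts spanned a wide range of levels. TERF1 was the most abundant, with a mean over the 6 libraries of 259.7 FPKM, rank 344 among the 23591 genes. NHP2 followed with 132 FPKM, TERC with 84.5 FPKM and DKC1 with 54.2 FPKM. POT1, TINF2 and GAR1 lay close together at 12.8, 12.7 and 11.3 FPKM, and their ranges over the libraries overlapped. ACD averaged 6.64 FPKM, TERF2 5.48 FPKM and TERT 3.50 FPKM, the lowest. The ranges did not overlap between TERF1 and NHP2 nor between DKC1 and POT1, and every other pair of neighbours in this order overlapped.

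**Figure D1:**
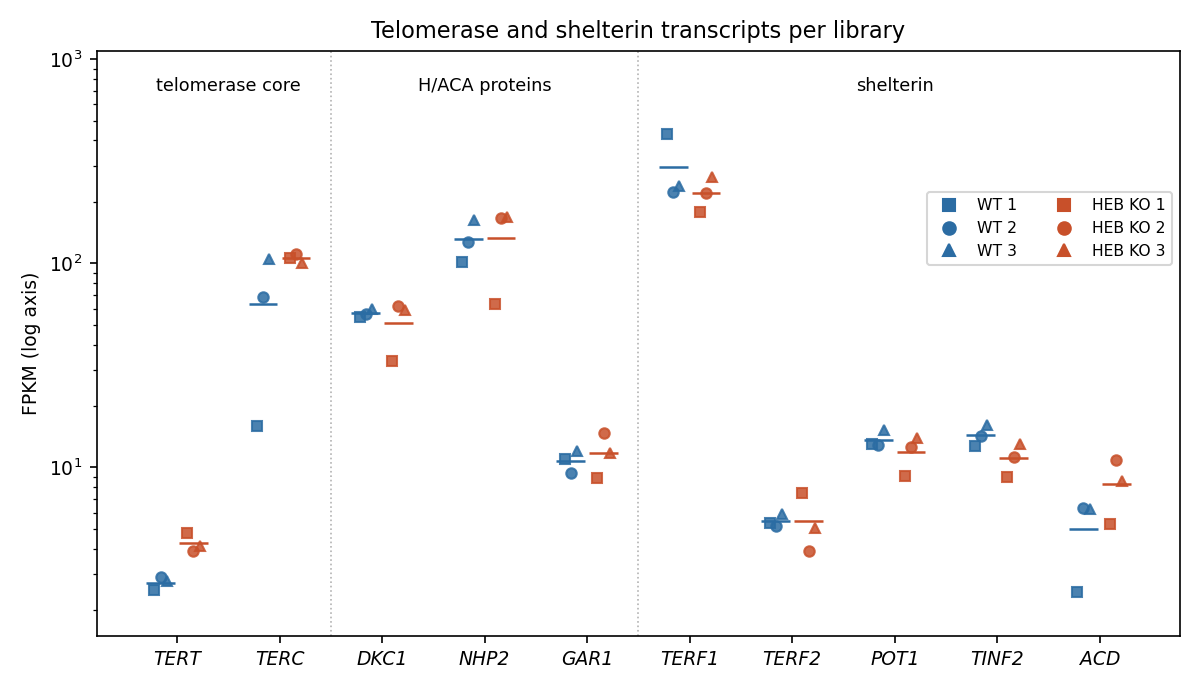
FPKM of the 10 transcripts on a log axis in each of the 3 WT (blue) and 3 HEB KO (orange) libraries; symbols give the library number and lines the group means. TERT lies higher in every HEB KO library, while TERC and ACD in WT library 1 and NHP2 and DKC1 in HEB KO library 1 lie below their groups.

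TERT, the catalytic subunit, read 2.50, 2.90 and 2.78 FPKM in WT and 4.77, 3.90 and 4.12 FPKM in HEB KO. Every HEB KO library was above every WT library, and the spread within each group was small. The means were 2.73 ± 0.204 FPKM and 4.27 ± 0.455 FPKM (SD, n = 3 each), 1.56-fold higher in HEB KO. The limma log2 fold change was 0.50 (SE 0.19, 95% interval 0.07 to 0.92), with an unadjusted p of 0.0282 and an adjusted p of 0.424. In the two-sided exact permutation test TERT reached p = 0.1, the smallest that 3 libraries against 3 allow. Of all tested genes, 7.72% were higher in every HEB KO library. Without both libraries numbered 1 the log2 difference was 0.38 and the ratio of means 1.41. It was -0.02, the other way, once the trend with GC content and transcript length had been removed from each library, a setting added after seeing the data and taken up below.

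TERC, the RNA subunit, read 15.9, 68.7 and 105 FPKM in WT and 106, 111 and 101 FPKM in HEB KO. The HEB KO libraries lay close together, and WT library 1 lay far below all the others. The means were 63.1 ± 44.7 FPKM and 106 ± 5.11 FPKM, the groups overlapped, and the log2 fold change was 1.10 with a 95% interval of -0.30 to 2.49 (limma adjusted p = 0.576). Without WT library 1 the log2 difference was 0.31. A pair of other short RNAs without poly(A) tails, chosen after their values were seen, were also lowest in that library. RMRP, the RNA of the RNase MRP complex, read 7755 FPKM there and 12861 to 24405 FPKM elsewhere. RPPH1, the RNA of RNase P, read 1963 FPKM there and 7412 to 25139 FPKM elsewhere. Both are rich in GC, at 63.1% and 64.6%, as is TERC at 66.7%. The short RNAs SNORA56 and SNORA36A were not lowest in WT library 1. SNORA56 read 23.9 FPKM in it and 6.08 FPKM in WT library 3, and SNORA36A 9.11 and 0 FPKM. Having been chosen after their values were seen, RMRP and RPPH1 are no separate finding. The cause of the low TERC value in WT library 1 was not tested. The ratio of TERC to TERT was 6.37 in WT library 1 and 22.3 to 37.7 in the other 5 libraries.

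DKC1, the dyskerin gene, read 54.7, 56.6 and 59.9 FPKM in WT and 33.4, 61.6 and 59.0 FPKM in HEB KO. The other libraries were nearly alike, and HEB KO library 1 stood below them. The log2 fold change was -0.20 (95% interval -0.84 to 0.44, limma adjusted p = 0.829), and 0.08 without HEB KO library 1. Its introns hold the small nucleolar RNAs SNORA36A and SNORA56. SNORA56 read 23.9, 24.9 and 6.08 FPKM in WT and 22.5, 6.96 and 24.7 FPKM in HEB KO, and SNORA36A was listed at 0 in WT library 3 and HEB KO library 2. FPKM of RNAs this short is imprecise, and neither passed the test.

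NHP2, a core H/ACA protein, read 101, 128 and 164 FPKM in WT and 63.3, 166 and 168 FPKM in HEB KO. HEB KO library 1 was again the lowest of all and the other HEB KO libraries the highest. The log2 fold change was -0.09 with a 95% interval of -1.06 to 0.89 (limma adjusted p = 0.959), and 0.38 without HEB KO library 1. NHP2 overlaps RMND5B on the opposite strand and has the annotated copies NHP2P1 and NHP2P2, so its reads may be shared where counting ignored strand or split repeats. GAR1, the H/ACA protein that joins last, read 10.9, 9.37 and 12.0 FPKM in WT and 8.93, 14.7 and 11.8 FPKM in HEB KO, with overlapping groups (log2 fold change 0.10, 95% interval -0.43 to 0.63). NOP10, the smallest protein of the set and not among the 10, read 222, 197 and 262 FPKM in WT and 97.2, 254 and 246 FPKM in HEB KO, with HEB KO library 1 below the rest as for NHP2. Within each library NHP2 was 1.85 to 2.85 times DKC1 and 7.09 to 14.3 times GAR1.

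TERF1, which binds double-stranded repeats, read 429.6, 223 and 240.5 FPKM in WT and 178, 221 and 266 FPKM in HEB KO. WT library 1 was far above the others, and the other 5 libraries overlapped. The log2 fold change was -0.38 (95% interval -1.20 to 0.44, limma adjusted p = 0.743), and -0.08 without WT library 1. TERF1 has 5 annotated copies elsewhere in the genome, TERF1P1 to TERF1P5, so its level is uncertain where reads were split. TERF2, its paralogue, read 5.37, 5.19 and 5.92 FPKM in WT and 7.47, 3.91 and 5.03 FPKM in HEB KO, where library 1 was the highest of all. Group means were 5.49 ± 0.378 FPKM and 5.47 ± 1.82 FPKM. TERF1 was 23.8 to 80.1 times TERF2 within a library, with the lowest ratio in HEB KO library 1 and the highest in WT library 1.

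POT1, the single-strand binding subunit, read 13.0, 12.9 and 15.3 FPKM in WT and 9.12, 12.7 and 13.9 FPKM in HEB KO. TINF2, the hub of the complex, read 12.7, 14.3 and 16.1 FPKM in WT and 9.03, 11.2 and 13.0 FPKM in HEB KO. Both had their lowest value in HEB KO library 1, and in both the groups overlapped. TINF2 had a log2 fold change of -0.35 (95% interval -0.84 to 0.13, limma adjusted p = 0.603) and was lower in HEB KO in every setting tried, with values between -0.47 and -0.22. POT1 had a log2 fold change of -0.21 (95% interval -0.71 to 0.29), which turned to 0.02 with the trend of GC content and length removed.

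ACD, which encodes the protein TPP1 that recruits telomerase, read 2.46, 6.31 and 6.26 FPKM in WT and 5.28, 10.9 and 8.63 FPKM in HEB KO. In each group library 1 was the lowest, and the groups overlapped through HEB KO library 1. The log2 fold change was 0.66 (95% interval -0.18 to 1.49, limma adjusted p = 0.576). It was above 0 in all 17 other settings, between 0.30 and 0.91, with the lowest value without WT library 1. TERF2IP, the shelterin subunit RAP1 that is not among the 10 and was named after its values were seen, read 12.2, 16.8 and 17.1 FPKM in WT and 9.27, 10.97 and 11.3 FPKM in HEB KO. All HEB KO libraries were below all WT libraries (log2 fold change -0.50, limma adjusted p = 0.486), as for 11.8% of all tested genes. By FPKM, TERF1 made up 79.9% to 90.4% of the sum over the 6 shelterin transcripts, and ACD 0.519% in WT library 1 and 2.08% to 4.01% in the other libraries.

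**Figure D2:**
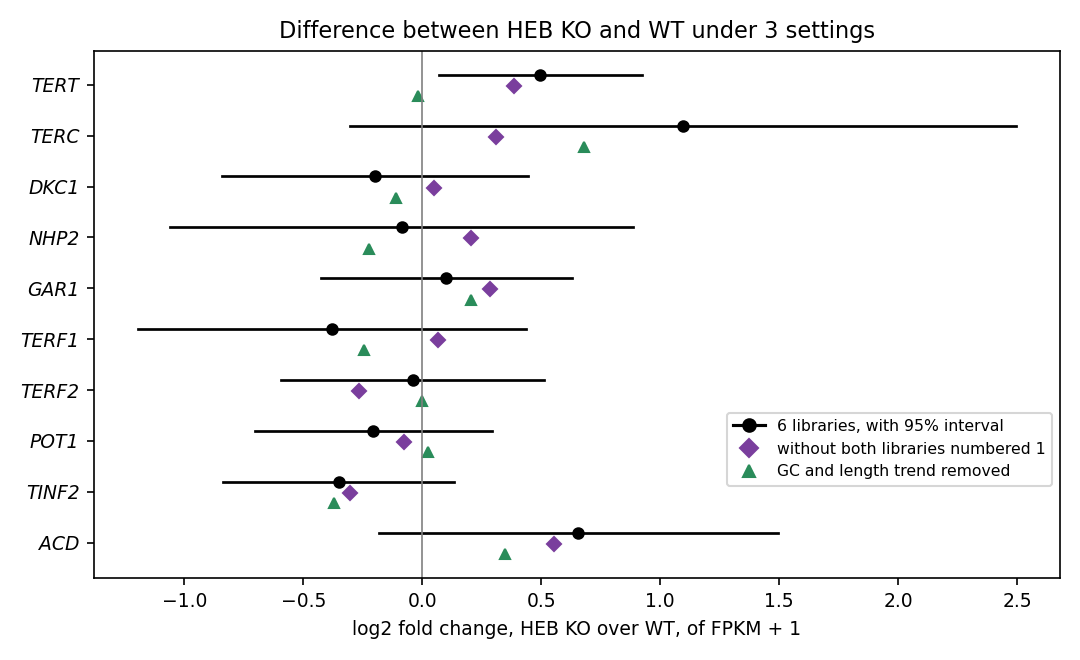
Log2 fold change of FPKM + 1 between HEB KO and WT for each transcript, with its 95% interval over the 6 libraries (black), without both libraries numbered 1 (purple) and with the trend of GC content and length removed (green). The interval includes 0 for 9 of the 10, and TERT moves from 0.50 to -0.02 in the last setting.

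GC content moved with the difference between the groups over the tested genes as a whole. The 12017 tested genes with an annotated transcript were put in 5 groups of like size by the GC content of the longest transcript. The median log2 fold change was -0.21 in the lowest group (GC content 30.2% to 40.8%), then -0.18, -0.10 and 0.07, and 0.35 in the highest (57.8% to 76.3%). In the highest group 23.6% of genes were higher in every HEB KO library, and in the lowest 1.29%. TERC at 66.7% GC, TERT at 65.7% and ACD at 61.8% all fell in the highest group, and they were the transcripts of the 10 with the largest differences towards HEB KO. Of the other 7, GAR1 alone was above 0. Among these 7 the differences did not rise steadily with GC content. They were -0.21 for POT1 at 37.6% GC, -0.35 for TINF2 at 54.2% and -0.09 for NHP2 at 57.1%. With the trends of GC content and transcript length removed together, the differences of TERT, TERC and ACD were -0.02, 0.68 and 0.35. The share of GC content alone in this was not tested. The gradient was smaller without both libraries numbered 1, with medians from -0.12 to 0.21. In that setting DKC1 was at 0.05, NHP2 at 0.21, GAR1 at 0.28, TERF1 at 0.06, TERC at 0.31, TERT at 0.38 and ACD at 0.55. TERF2 was at -0.27, POT1 at -0.08 and TINF2 at -0.30. The median over all tested genes was -0.01 in the same setting, and none of the 10 passed. A part of GC content in the TERT difference was not tested beyond these values.

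**Figure D3:**
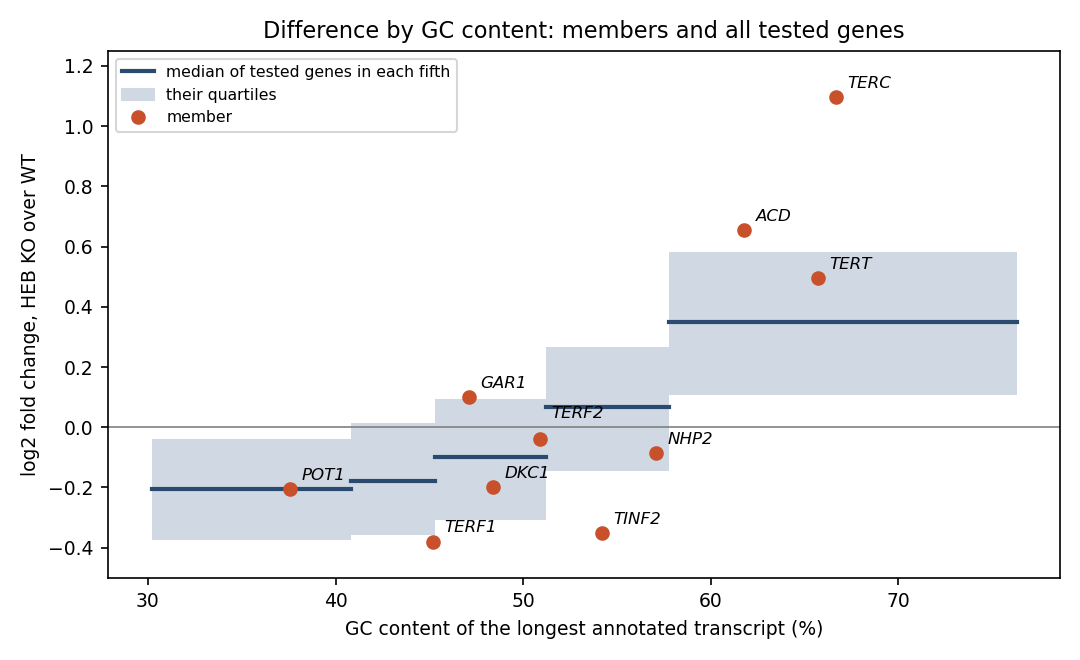
Log2 fold change between HEB KO and WT against GC content of the longest annotated transcript, for the 10 members (orange) and, as the median (line) and quartiles (shading), for all tested genes in 5 groups by GC content. TERT at 0.50 lies within the quartiles of its group (0.11 to 0.58), whereas ACD at 0.66 and TERC at 1.10 lie above them. GAR1 at 0.10 lies just above the quartiles of its group, and TERF1 at -0.38 and TINF2 at -0.35 lie below theirs.

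The libraries numbered 1 stood apart for some of the transcripts. WT library 1 was the lowest WT library for 6 of the 10 transcripts and the highest for TERF1. On the log2(FPKM + 1) scale it differed from the mean of WT libraries 2 and 3 by -2.34 for TERC, -1.07 for ACD, -0.51 for NHP2 and 0.89 for TERF1, and by -0.24 to 0.04 for the other 6. Over all tested genes the same difference had a median of 0.23 in the lowest group by GC content and -0.41 in the highest. TERT, in that highest group, differed by only -0.13, and NHP2 lay below the median of its own group, -0.05. HEB KO library 1 was the lowest HEB KO library for 7 of the 10 and the highest for TERT and TERF2. For neither library was the matching share over all tested genes computed, so these counts do not set the 10 apart. HEB KO library 1 differed from HEB KO libraries 2 and 3 by -1.39 for NHP2, -0.83 for DKC1, -0.77 for ACD and 0.64 for TERF2. Over all tested genes this difference followed length, with a median of -0.54 for transcripts up to 2074 bases and 0.43 for those of 5926 bases or more. NHP2 and GAR1 have transcripts of 865 and 1224 bases, and GAR1 differed by -0.51. TERC, the shortest of the 10 with 541 bases, differed by 0.01. DKC1 with 3079 bases and TERF2 with 2983 bases lay well off the medians of their length groups, -0.04 and -0.20.

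**Figure D4:**
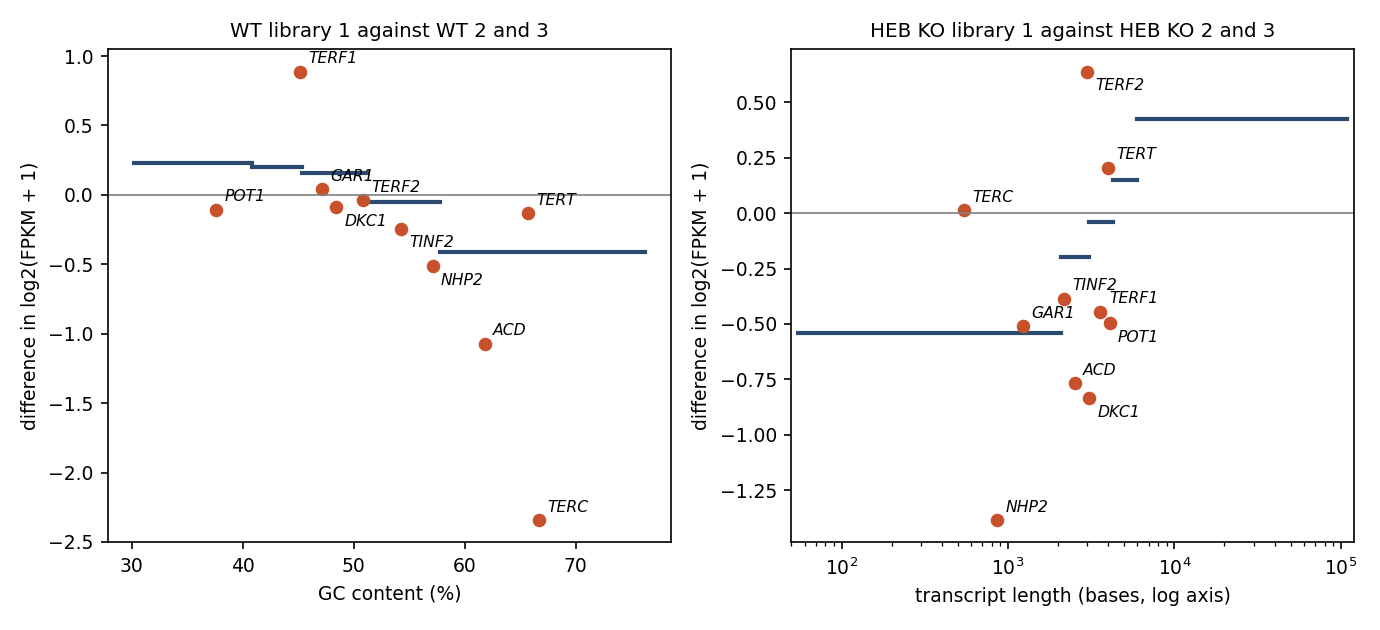
Left, difference in log2(FPKM + 1) of WT library 1 from WT libraries 2 and 3 against GC content; right, that of HEB KO library 1 from HEB KO libraries 2 and 3 against transcript length on a log axis. Points are the 10 members and bars the median of all tested genes in each of 5 groups; TERC stands lowest on the left at -2.34 and NHP2 on the right at -1.39.

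Other genes that build or tend telomerase did not pass the test either. Of 19 genes of telomerase assembly and RNA processing, all tested, 0 passed, 8 had a log2 fold change above 0 and the median was -0.01. The list had 1 gene higher and 2 lower in every HEB KO library, where all tested genes had 7.72% and 11.8%. At an unadjusted p under 0.05 (4.63% of all tested genes higher, 5.42% lower) there was 1, COIL, which encodes the Cajal body protein coilin. Named after its values were seen, it read 20.7, 24.0 and 23.7 FPKM in WT and 11.4, 15.3 and 19.5 FPKM in HEB KO; the groups were separate (limma adjusted p = 0.477). PAPD5, RUVBL2 and WRAP53 were also named after their values were seen. PAPD5, a poly(A) polymerase that adds short tails to TERC, was lower in all HEB KO libraries, at 6.44 ± 0.174 FPKM and 4.64 ± 0.185 FPKM (limma adjusted p = 0.499). RUVBL2, an ATPase needed for assembly, averaged 35.6 and 57.1 FPKM with overlapping groups and 60.1% GC. WRAP53, which binds the CAB box shown above, averaged 11.8 and 14.03 FPKM. PTGES3, a chaperone partner and the most abundant of this list, averaged 270.1 ± 43.6 FPKM and 249 ± 64.4 FPKM.

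Of 24 genes of telomere processing, replication and chromatin, 23 were tested and 0 passed, with a median log2 fold change of -0.02. At an unadjusted p under 0.05 (4.63% of all tested genes higher, 5.42% lower) there were 3 of the 23, TERF2IP, RTEL1 and ZBTB48, and the last 2 were named after their values were seen. RTEL1, a helicase that unwinds telomere loops, read 1.42, 2.83 and 2.32 FPKM in WT and 3.95, 4.07 and 3.70 FPKM in HEB KO (limma adjusted p = 0.403). ZBTB48, a zinc finger protein that binds telomeric repeats, read 2.31, 3.34 and 4.31 FPKM in WT and 4.34, 5.80 and 5.84 FPKM in HEB KO (limma adjusted p = 0.484). Both were higher in all HEB KO libraries, and their GC contents of 62.5% and 61.3% lie in the group of TERT and ACD, where 23.6% of genes were higher in every HEB KO library. XRCC5 and XRCC6, the Ku subunits, had the highest levels of the list, with 418 and 303 FPKM in WT and 321 and 268 FPKM in HEB KO. ZSCAN4, a telomere gene of early embryos and the gene of the list not tested, stayed below the filter in all libraries, at 0.131 and 0.106 FPKM on average.

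Known transcriptional regulators of TERT showed the same lack of calls. Of 14 listed, 12 were tested, 0 passed, 0 had an unadjusted p under 0.05 and the median log2 fold change was -0.16. MAZ, a zinc finger protein, averaged 57.7 FPKM in WT and 58.4 FPKM in HEB KO. The groups did not overlap for 1 gene with higher and 3 with lower values in HEB KO, against 7.72% and 11.8% of all tested genes.

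**Figure D5:**
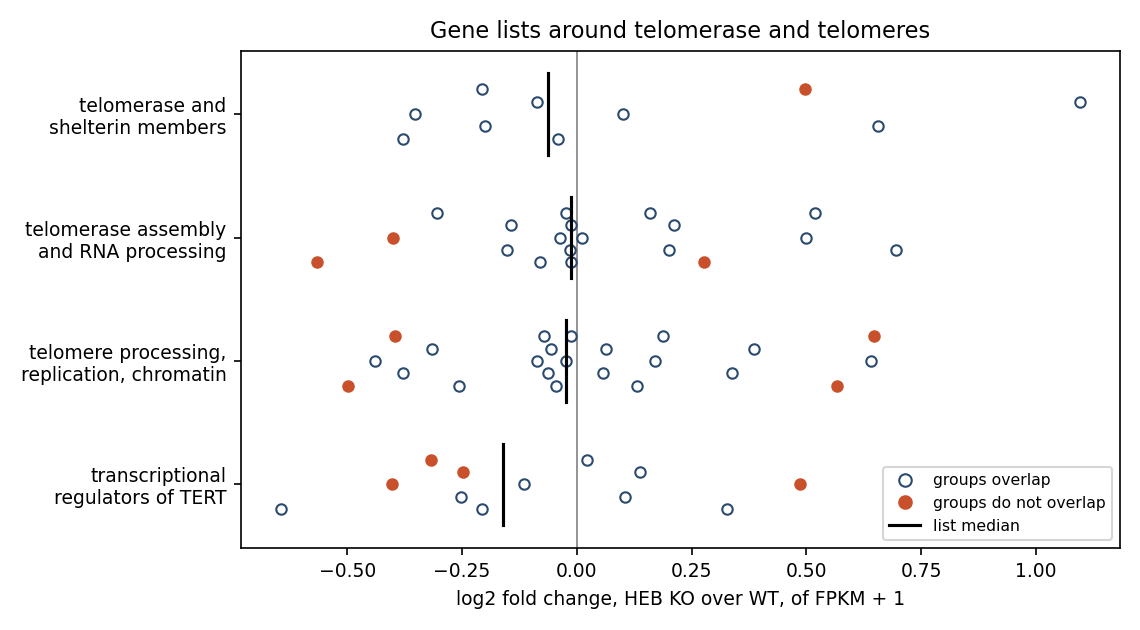
Log2 fold change between HEB KO and WT of the tested genes of 4 lists, each point a gene, filled where the groups do not overlap, with the list median as a line. The medians lie between -0.16 and -0.01, and no gene in the 4 lists passed the test.

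The closest patterns over the 6 libraries were measured by the mean absolute difference of log2(FPKM + 1) after centring each gene. For TERT these were ZNF688 (0.0337), MX2 (0.0516) and MAPK7 (0.0526). Near TERF1 were TRHDE (0.0604) and EPCAM (0.0604), and EPCAM read 402 FPKM in WT library 1 and 149 to 209.9 FPKM in the others. For TERC the nearest were CCDC124 (0.139), FDXR (0.192) and C1orf233 (0.194), all lowest in WT library 1. Being chosen by likeness, such genes share the extreme libraries of TERC or TERF1, so their values in WT library 1 are no separate finding.

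E proteins such as HEB bind E-boxes, CANNTG, as dimers. RefSeq promoter windows from 250 bases before to 50 after the start (GRCh38.p14) were at hand for 7 of the 10 genes, TERC, TERF1 and TERF2 being those without. On either strand CANNTG was found in 6 of the 7, against 68.9% of 27305 promoters. The form CAGCTG, a case of CANNTG, occurred in 4 of the 7, those of TERT, POT1, DKC1 and NHP2, against 17.7% of all. CACGTG, the form bound by MYC and MAX, occurred in the window of TERT alone, against 7.43% of all, and CACCTG in that of POT1 alone, against 20.6%. Binding of HEB was not measured here, and these matches are descriptions of sequence.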

How the data were processed

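Total RNA of 3 WT and 3 HEB KO libraries of H1 cells was compared. Per the submitters' processing notes, TopHat2 2.1.0 with Bowtie2 2.2.6 served for alignment, and the build was hg19. How transcripts were quantified, with which annotation and whether by strand, is not given in the sources used. The authors deposited 1 FPKM value per gene and library, a unit read from the values themselves. They hold no read counts, so no count model was fitted and depth is unknown. Of 23619 entries, 28 with a date for a symbol were left out.

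The log2(FPKM + 1) values were tested in limma (version 3.58.1, R 4.3.3, intensity trend on), for genes with at least 1 FPKM in 3 libraries, and Benjamini-Hochberg adjustment over all 12937. For low genes this scale shrinks the log2 fold change. The fit was tested on simulated data. GC content and length are those of each symbol's longest GENCODE 29 transcript (92.9% of tested genes). Coordinates are not given, since that build differs from hg19.

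The members and lists were chosen with earlier results of these data known. The genes named are the 10 members, TCF12, from each list those past the threshold or else the 2 with the highest mean, and the 3 nearest patterns of TERT, TERC and TERF1; others are said to be named after their values were seen. Some genes that this rule names are not reported here. Alternatives changed the filter, pseudocount, scaling, weights, trend, block and libraries used.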

Additional observations from a re-analysis of the deposited data

How the results depend on the processing

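None of the 10 genes passed in any of 17 other settings, of which 16 were planned and 1 was chosen after the data were seen. Nearest were TERT and ACD with a weight estimated per library, with limma adjusted p of 0.0553 and 0.0737. Of 169 log2 fold changes of the 10 in other settings, 153 kept their direction and 16 did not, all of genes that had not passed. TERT could not be tested with a filter at 5 FPKM. TERC, TINF2 and ACD kept their direction in every setting, with TERC between 0.31 and 1.64. The unknown depth limits the precision of low values such as those of TERT.

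Reversed log2 fold changes were as follows. With the GC and length trend removed TERT was at -0.0175, POT1 at 0.0221, PTGES3 at 0.0416 and MAZ at -0.45. Without both libraries numbered 1 DKC1 was at 0.0489, NHP2 at 0.21, TERF1 at 0.0648, PTGES3 at 0.0436, NOP10 at 0.14, XRCC6 at 0.0794 and MAZ at -0.0191. With library weights DKC1 was at 0.0428, NHP2 at 0.29, TERF1 at 0.0528, PTGES3 at 0.14, NOP10 at 0.18, XRCC6 at 0.15 and SNORA56 at -0.0336. Median ratio scaling put TERF2 at 0.0173, and quantile normalization put NHP2 at 0.0698 and PTGES3 at 0.0916. With single libraries left out, the ranges were -0.35 to 0.0782 for DKC1, -0.32 to 0.38 for NHP2, -0.0586 to 0.27 for GAR1, -0.25 to 0.14 for TERF2, -0.28 to 0.0923 for PTGES3, -0.54 to 0.15 for NOP10, -0.46 to 0.13 for XRCC6, -0.16 to 0.17 for MAZ, -0.59 to 0.56 for SNORA56 and -1.75 to 0.54 for SNORA36A.

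Over all genes the test called 31. Dropping the filter gave 11 and a cutoff of 5 FPKM gave 18, both with another set of genes tested. Weighting the libraries gave 1874, leaving out each library in turn 7 to 76 and leaving out both libraries numbered 1 gave 480, and the cause was not tested. TERF2IP, ZBTB48 and RUVBL2 passed with library weights (limma adjusted p = 0.0262, 0.0258 and 0.0430).

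In the fit with a replicate block 10 genes and 0 of the 10 members were called, TERT having a limma adjusted p of 0.340. Deviations of same-numbered libraries correlated at 0.262, -0.0399 and 0.269, so the numbers were not taken to pair the libraries. No count-based test was run, because the table holds no counts.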
